A study of Mus musculus with 2 samples.

Results

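The Runx transcription factor genes Runx1, Runx2 and Runx3 and 4 further genes of bone formation, Sp7, Ihh, Pth1r and Nkx3-2, were described in open chromatin of the mouse limb at 11.5 days of embryonic development. They are 7 of the 21853 protein-coding genes with an annotated start that could hold peaks. For each gene the DNase I peaks were collected within 1 kb of a protein-coding start (promoter peaks), between the annotated ends of the gene (gene-body peaks), and farther than 1 kb from every protein-coding start but nearest, within 500 kb, to a start of that gene (distal peaks). DNase-seq marks accessible DNA by the cuts that DNase I makes in it. The single group was limb tissue of healthy embryos of strain B6NCrl, with male and female embryos pooled, no treatment named and no allele named, in 2 biological replicates, which the labels list as separate samples under the same donor entry. The labels do not say how forelimbs and hindlimbs were mixed, and they name instrument models for replicate 2 alone. Because the tissue is whole limb, an accessible site in few cells and weak access in many cells cannot be told apart.

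Runx proteins bind DNA through the runt domain, together with the partner protein Cbfb, at sites that read TGTGGT. Each mammalian Runx gene has an upstream promoter, P1, and a downstream promoter, P2, which give proteins with different first residues. Runx1 is known for blood stem cell formation, Runx2 is required for osteoblasts, and Runx3 for sensory neurons and T cells. Runx2 and Runx3 also drive the maturation of cartilage cells. Sp7 (osterix) acts after Runx2 in osteoblasts. Ihh is the hedgehog signal of maturing cartilage, and Pth1r is the receptor through which the parathyroid hormone-related protein Pthlh slows that maturation. Nkx3-2 is a repressor in young cartilage cells. In the limb bud, bone has not yet formed at this stage.

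The promoters of the Runx genes are shown first, since the results differ between P1 and P2 of the same gene. The sequences are the RefSeq windows on GRCm38.p6 from 250 bases before to 50 bases after a RefSeq start, read 5′ to 3′ in the direction of transcription, with each RUNX word (TGTGGT or its reverse complement ACCACA) in capitals. The RefSeq table held 2 windows for Runx1, 1 for Runx2, 2 for Runx3, 1 for Ihh, 3 for Pth1r and 1 for Nkx3-2.
Runx1 P1 (chr16:92826025-92826324, minus strand): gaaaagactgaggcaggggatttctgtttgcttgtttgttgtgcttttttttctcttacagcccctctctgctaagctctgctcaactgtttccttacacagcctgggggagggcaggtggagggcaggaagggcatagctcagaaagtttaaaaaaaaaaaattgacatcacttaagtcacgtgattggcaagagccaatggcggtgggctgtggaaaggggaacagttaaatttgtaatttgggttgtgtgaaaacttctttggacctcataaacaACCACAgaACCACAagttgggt
Runx2 P1 (chr17:44814578-44814877, minus strand): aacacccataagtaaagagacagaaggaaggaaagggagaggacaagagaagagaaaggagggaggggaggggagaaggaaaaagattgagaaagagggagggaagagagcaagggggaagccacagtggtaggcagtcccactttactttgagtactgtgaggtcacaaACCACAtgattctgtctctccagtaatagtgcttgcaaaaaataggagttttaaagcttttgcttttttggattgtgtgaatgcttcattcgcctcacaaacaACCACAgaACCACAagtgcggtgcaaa
Runx3 P1 (chr4:135120395-135120694, plus strand): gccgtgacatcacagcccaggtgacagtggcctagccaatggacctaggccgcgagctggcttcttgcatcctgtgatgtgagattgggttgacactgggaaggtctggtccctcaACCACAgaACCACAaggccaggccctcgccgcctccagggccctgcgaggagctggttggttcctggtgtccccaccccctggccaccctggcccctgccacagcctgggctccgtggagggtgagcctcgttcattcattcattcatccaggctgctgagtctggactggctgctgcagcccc
Runx1 P2 (chr16:92697280-92697579, minus strand): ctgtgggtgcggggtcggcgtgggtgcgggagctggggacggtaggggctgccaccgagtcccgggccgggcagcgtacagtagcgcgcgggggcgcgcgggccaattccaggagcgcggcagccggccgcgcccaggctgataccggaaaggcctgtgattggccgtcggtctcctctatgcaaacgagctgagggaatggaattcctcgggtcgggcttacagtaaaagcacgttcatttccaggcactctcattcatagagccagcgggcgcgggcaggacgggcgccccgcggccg
Runx3 P2 (chr4:135152295-135152594, plus strand): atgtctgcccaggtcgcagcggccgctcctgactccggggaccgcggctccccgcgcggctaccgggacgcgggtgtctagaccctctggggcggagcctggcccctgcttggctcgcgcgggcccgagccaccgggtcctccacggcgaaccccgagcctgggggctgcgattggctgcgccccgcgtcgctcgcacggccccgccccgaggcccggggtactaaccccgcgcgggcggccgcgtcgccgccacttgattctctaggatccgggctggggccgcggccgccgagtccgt
All 3 P1 windows hold a pair of RUNX words in the same direction, 2 bases apart. The pair begins 28 bases after the RefSeq start of Runx1, 23 bases after that of Runx2 and 134 bases before that of Runx3. A pair with this spacing stands in 7 of 32851 RefSeq promoter windows, or 0.0213%. The 7 include these 3 P1 windows, and the search for the pair was made after the windows had been read. A RUNX word of any spacing stands in 16.8% of the windows, and neither P2 window holds one. The P2 windows have 35 CpG in Runx1 and 45 in Runx3, against 2, 2 and 8 in the P1 windows of Runx1, Runx2 and Runx3. The median RefSeq promoter window has 7.

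Peaks were plentiful around Runx1 and Runx2 and few around the 4 other bone genes. Runx1 had 65 distal peaks in replicate 1 and 58 in replicate 2, of which 39 were shared, a shared peak being a merged region where peaks of both libraries overlap by at least 1 bp. Runx2 had 54 and 56 distal peaks, with 38 shared. Runx3 had 16 in replicate 1 and 34 in replicate 2, with 13 shared. Sp7 had 6 in each library and 6 shared. Ihh had 4 in each library and 3 shared, and Nkx3-2 had 3 and 4, also with 3 shared. Pth1r had 3 and 1, with 1 shared. Only Runx3 differed between the libraries by 2 times or more among the members with at least 20 distal peaks in either library. Of the 1914 genes with that many, 28, or 1.46%, were at least 2 times higher in replicate 2 as Runx3 was, and 30 were at least 2 times higher in replicate 1.

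The 3 Runx genes reached 10 distal shared peaks and the other 4 members did not, while 12.1% of all protein-coding genes did. Runx1 and Runx2 reached 20, against 4.08% of all genes. The median was 6 distal shared peaks over the 7 members and 1 over all genes. A nearest start is a rule of position and does not show which gene an element acts on.

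A shared promoter peak was found at 6 of the 7 genes, against 66.8% of all protein-coding genes. In replicate 1 all 7 had a promoter peak (68.4% of all genes), and in replicate 2 it was 6 (68.7% of all genes). Counts of 6 or 7 among 7 genes do not set the members apart from so common a feature. Nkx3-2 was the gene without a shared promoter peak. It had 1 promoter peak in replicate 1, 190 bp upstream of its start, with a signal of 66, and no promoter peak in replicate 2.

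**Figure D1:**
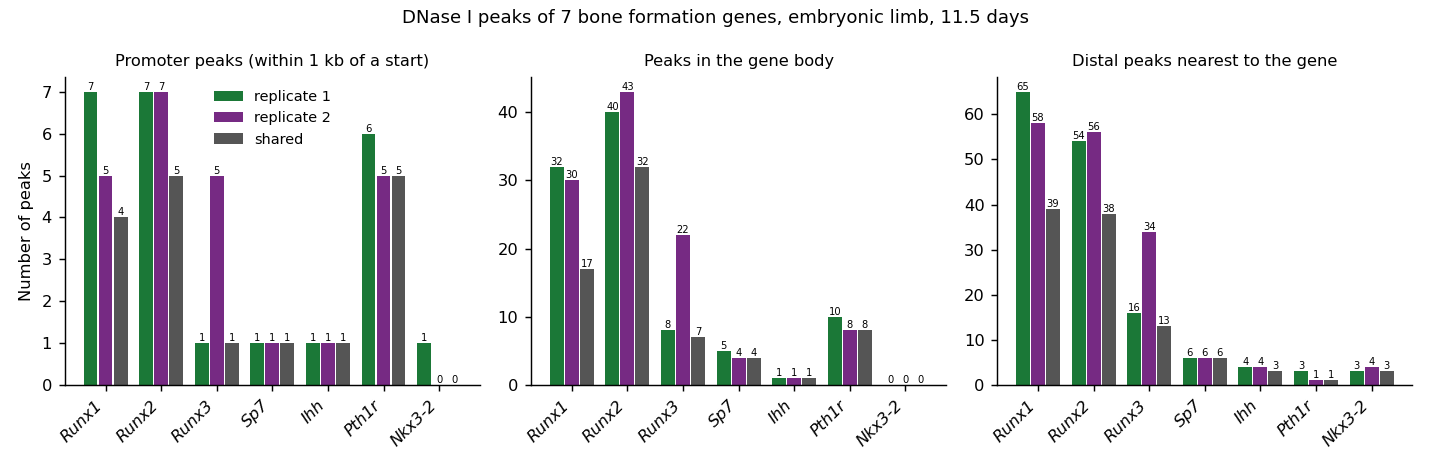
Number of DNase I peaks (vertical axes) of each gene in replicate 1 (green), replicate 2 (purple) and shared between them (grey), in panels for promoter, gene-body and distal peaks. Runx1 and Runx2 are high in both libraries, while Runx3 has 16 distal peaks in replicate 1 and 34 in replicate 2.

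The upstream promoters of Runx1 and Runx2 carried no shared peak, whereas their downstream promoters were strongly accessible. P1 starts were those of transcripts whose protein begins M-A-S and P2 starts those whose protein begins M-R-I, and annotated starts of other transcripts were joined to the promoter they lay within 1 kb of. P1 lies 129 kb from P2 in Runx1, 78.1 kb in Runx2 and 31.8 kb in Runx3. The joined starts span 371 bp at P1 and 1833 bp at P2 of Runx1, and 571 and 1955 bp at Runx2. Each promoter of Runx3 has 1 start. Peak counts thus come from stretches of unlike length. At P1 of Runx1 neither library had a peak or a hotspot, a hotspot being the authors' broader call. The nearest peak centre was 2022 bp away in both libraries. At P2 of Runx1 there were 7 peaks in replicate 1 and 5 in replicate 2, of which 4 were shared. The strongest P2 peak, chr16:92697316-92697505, is centred 82 bp upstream of the P2 start and had a signal of 110 in replicate 1 and 93 in replicate 2. Within each list these values stand at percentiles 95.6 and 91.7. The central part of this peak lies inside the P2 window printed above. The next were chr16:92697836-92698005 with signals of 64 and 58, and chr16:92696736-92696885 with 51 and 53. The signal is the authors' own value, on a scale that is not given in the sources used here, so it is ranked only within a library.

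P1 of Runx2 had no peak in replicate 1, where the nearest peak centre was 7854 bp away. In replicate 2 it had 1 peak, 574 bp upstream, with a signal of 30 at percentile 32.8, inside a hotspot with a −log10 q of 4.80. P2 of Runx2 had 7 peaks in replicate 1 and 6 in replicate 2, of which 5 were shared. Its strongest shared peaks, chr17:44736336-44736505 and chr17:44736136-44736285, lie in a noncoding exon. The one 228 bp from the P2 start had signals of 87 and 90, and the one 438 bp from it had 68 and 95. The sequences of these exonic peaks are not printed. The third, chr17:44734696-44734925, had signals of 53 and 58.

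Runx3 showed another arrangement. Its P1 had 1 peak in each library at the same place, centred 692 bp upstream of the start, with signals of 56 in replicate 1 and 30 in replicate 2. Its central 150 bp are shown since this was the sole P1 peak shared by both libraries, with the E-box CAGCTG and the SP word GGGCGG in capitals.
Runx3 P1 peak (chr4:135119886-135120035, plus strand): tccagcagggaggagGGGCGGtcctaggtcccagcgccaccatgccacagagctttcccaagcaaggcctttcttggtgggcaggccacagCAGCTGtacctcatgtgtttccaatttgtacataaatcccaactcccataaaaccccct
At its P2, replicate 1 had no peak within 1 kb and no hotspot, with the nearest peak centre 1866 bp away. Replicate 2 had 4 peaks there, with signals of 41, 43, 46 and 47, so no peak was shared. Within 4 kb of P2, a width chosen after the values were seen, replicate 1 had 1 peak and replicate 2 had 13. That 1 peak was matched in replicate 2, and the other 12 peaks of replicate 2 had signals between 32 and 54 and no partner. In the same windows P2 of Runx1 had 10 and 8 peaks, and P2 of Runx2 had 8 and 11.

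Of the 6 Runx promoters 3 had a shared peak. At Runx3 this depends on the window, since its P1 peak lies outside 500 bp, where the count is 2, and the shared peak near its P2 lies inside 2 kb, where the count is 4. The balance at Runx1 and Runx2, with the downstream promoter accessible and the upstream one not, was set against other genes whose starts form clusters at least 5 kb apart. Of 4938 such genes, 6.12% had a shared peak at the downstream cluster alone, 57.2% at the upstream cluster alone, 14.6% at both and 22.1% at neither. CpG content differed between the promoters as well. The ratio of observed to expected CpG over 300 bp at the outermost P1 start was 0.187 in Runx1, 0 in Runx2 and 0.262 in Runx3. At the outermost P2 start it was 1.01, 0.395 and 0.973, and the other 4 starts joined to P2 of Runx2 had 0.67 to 0.953. Over all starts, 22% of those with a ratio under 0.4 had a shared peak, against 90.6% of those at 0.4 or over. P2 of Runx3, at 0.973, was thus among the CpG-rich starts without a shared peak. A peak in replicate 2 alone was found at 1.05% of the CpG-rich starts, and in replicate 1 alone at 0.676%.

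**Figure D2:**
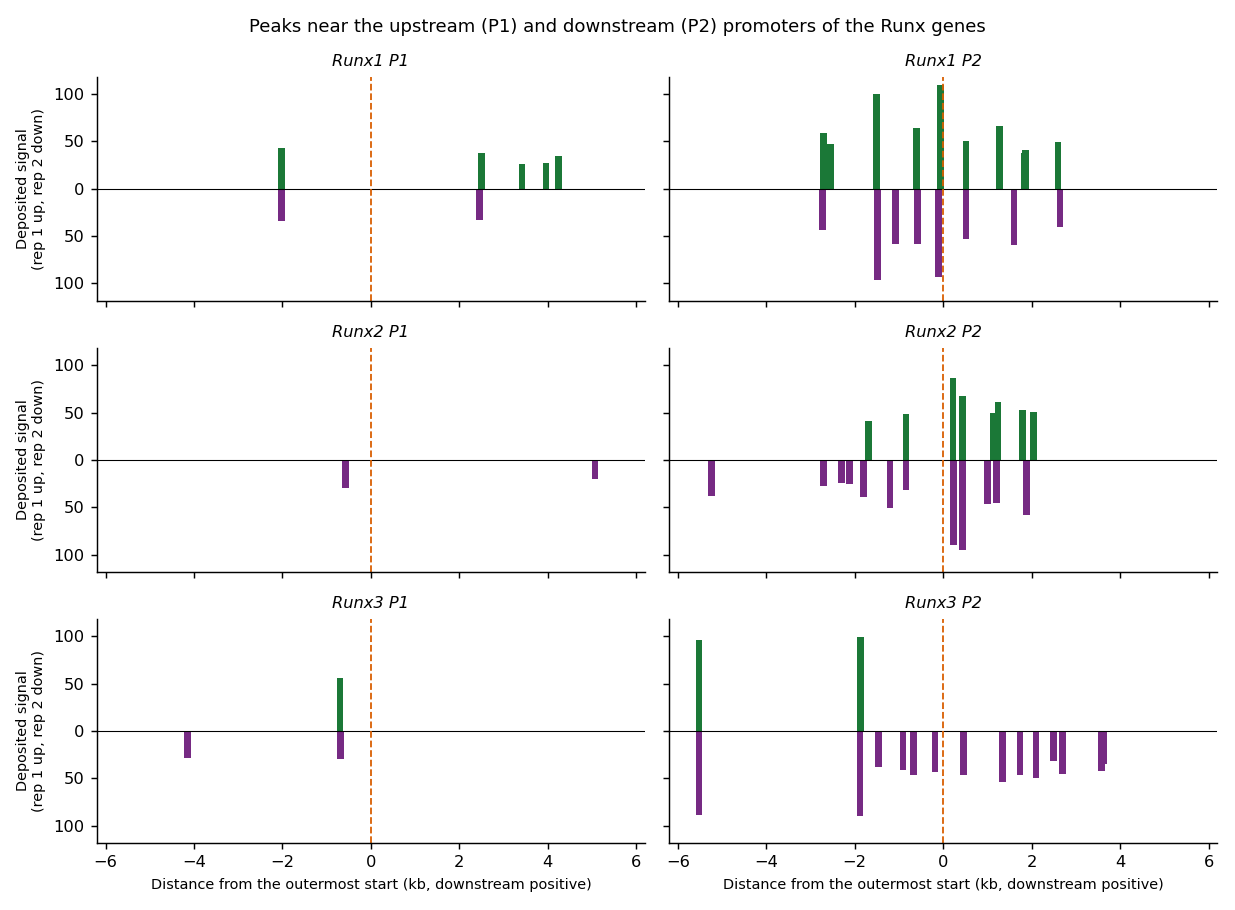
Deposited signal of each peak (bars, replicate 1 upward in green and replicate 2 downward in purple) against distance in kb from the outermost P1 or P2 start of each Runx gene (dashed line, downstream positive). P1 of Runx1 has no peak within 1 kb in either library, and P2 of Runx3 has 4 in replicate 2 and none in replicate 1.

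Along Runx1 most distal shared peaks lay outside the gene. Of the 39, 26 were upstream of P1, reaching as far as 313 kb, 7 lay between P1 and P2, and 6 between P2 and the gene end. The gene, ENSMUSG00000022952.17, spans chr16:92601466-92826149 on the minus strand and held 32 and 30 peaks in its body, of which 17 were shared. The strongest distal shared peak, chr16:92698736-92698905, is intronic, 1.49 kb upstream of P2, with signals of 100 and 96. The next, chr16:92928316-92928485, is intergenic, 102 kb upstream of P1, with signals of 92 and 80. The third, chr16:92609296-92609465, lies in an intron 86.1 kb downstream of its nearest start, with signals of 79 and 77. The intronic enhancer of Runx1 that is known for blood stem cells lies 23 kb downstream of P1 in the mouse. In the window from 20 to 27 kb downstream of P1 there were 0 peaks and 0 hotspots in replicate 1, and likewise 0 and 0 in replicate 2.

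Along Runx2 the distal shared peaks lay mostly inside the gene. The gene, ENSMUSG00000039153.16, spans chr17:44495987-44814797 on the minus strand and held 40 and 43 peaks in its body, of which 32 were shared. Of its 38 distal shared peaks, 22 lay between P2 and the gene end, 2 between P1 and P2 and 14 upstream of P1. The strongest were intronic and far from the starts. They were chr17:44618316-44618485 with signals of 85 and 70, chr17:44565476-44565685 with 82 and 71, and chr17:44506696-44506865 with 78 and 71, at 116, 169 and 228 kb from the nearest Runx2 start. Of those upstream of P1, 13 stand inside Supt3, a gene of a transcriptional coactivator complex that overlaps Runx2 and runs the other way. A further 3 shared peaks in the body of Runx2 are nearest to a start of Supt3 and were not counted as distal peaks of Runx2. The strongest of these, chr17:44777056-44777225, had signals of 121 and 119, and it covers the annotated start of Supt3. In replicate 1 no other shared peak of the 7 genes had as high a signal. In replicate 2 a peak in the body of Pth1r was higher, with 122.

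Runx3, ENSMUSG00000070691.10, spans chr4:135120652-135177990 on the plus strand. It held 8 peaks in its body in replicate 1 and 22 in replicate 2, with 7 shared. The distal shared peaks were 4 upstream of P1, 4 between the promoters, 3 from P2 to the gene end and 2 beyond it. The strongest, chr4:135206436-135206585, lies outside the gene, 54 kb from P2, with signals of 102 and 96. The other two were intronic. They were chr4:135150536-135150705, 1.88 kb upstream of P2, with signals of 99 and 90, and chr4:135166476-135166645, 14.1 kb downstream of P2, with 90 and 99. These 3 sites were chosen among shared peaks, so their presence in both libraries was given by the choice. Of its 39 promoter and distal peaks in replicate 2, 25, or 64.1%, had no peak and no hotspot of replicate 1 under them, against 22.7% of all peaks of replicate 2. In replicate 1 it was 3 of 17, or 17.6%, against 22.1% of all. The 25 had a median percentile of 49.1. Library depth, which is unknown, and the instrument were not tested as a part of this difference.

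The strongest peak with neither a peak nor a hotspot in the other library, by its percentile, was then read for each Runx gene. At Runx1 it was chr16:92695656-92695805 in replicate 2, in a coding exon near P2, with a signal of 59 at percentile 74.1. At Runx2 it was the intronic peak chr17:44594836-44594985 in replicate 2, with a signal of 39 at percentile 50.8. Stronger Runx2 peaks without an overlapping peak, chr17:44737776-44737925 in replicate 2 and chr17:44734536-44734685 in replicate 1, each with a signal of 51, did overlap a hotspot of the other library. At Runx3 it was chr4:135179056-135179205 in replicate 1, just outside the gene, with a signal of 63 at percentile 70.8. That peak lay in a hotspot whose −log10 q stands at the ceiling of 100.

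**Figure D3:**
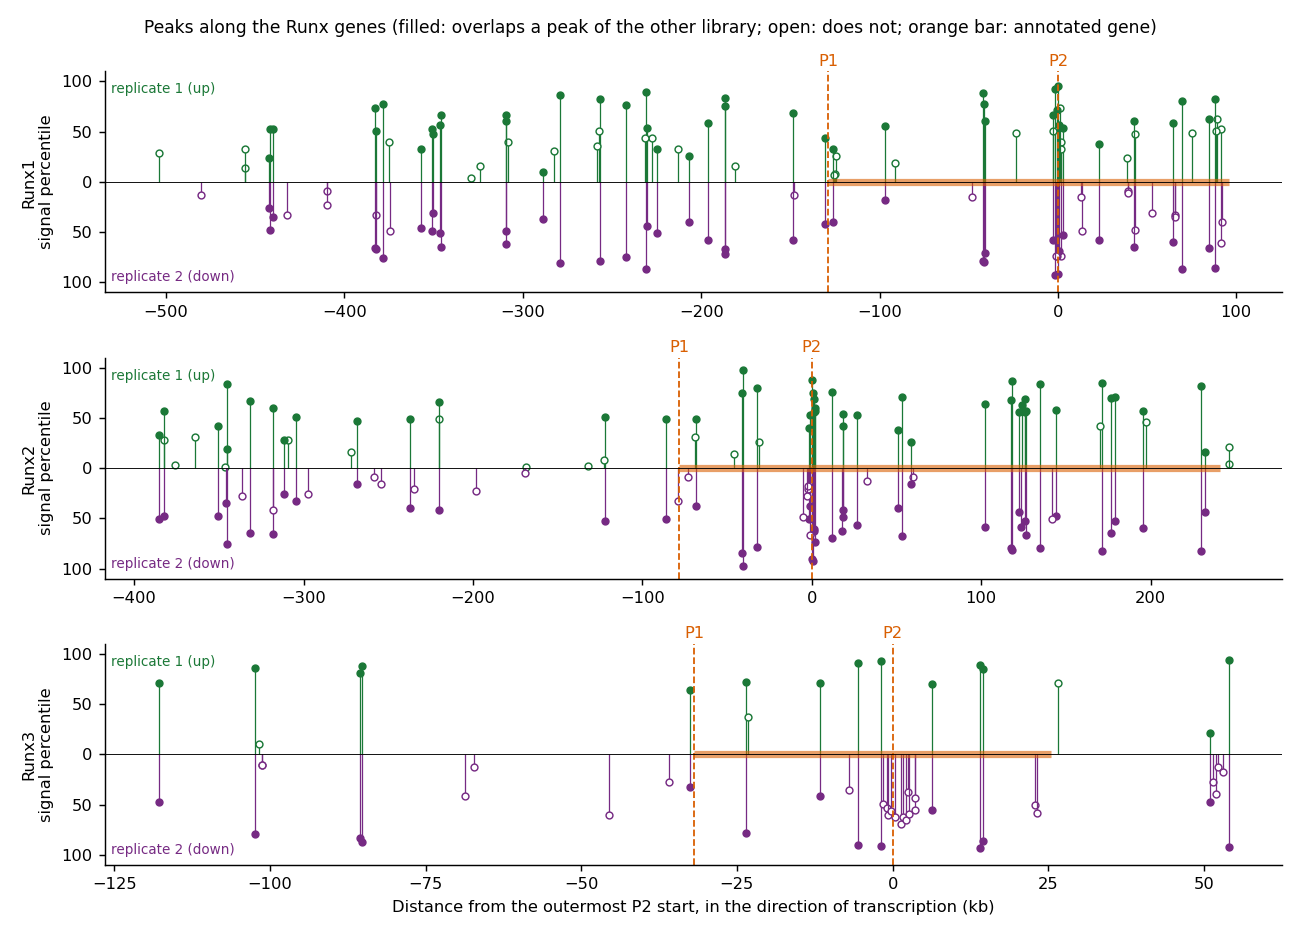
Position of every peak of Runx1, Runx2 and Runx3 in kb from the outermost P2 start, against the percentile of its signal within its own list (replicate 1 upward, replicate 2 downward). Filled points overlap a peak of the other library, and the open points of replicate 2 gather around P2 of Runx3, where 12 of 13 peaks within 4 kb had no partner.

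The strongest distal shared peak of each gene is printed next, because several of them read alike. Each is 150 bp around the centre, on the strand of the gene, 5′ to 3′, from GRCm38.p6. Capitals mark the stretch that matches the CTCF consensus with up to 2 mismatches in 14 letters, on either strand. CTCF is a DNA-binding protein of chromatin loops and domain borders.
Runx1 (chr16:92698746-92698895): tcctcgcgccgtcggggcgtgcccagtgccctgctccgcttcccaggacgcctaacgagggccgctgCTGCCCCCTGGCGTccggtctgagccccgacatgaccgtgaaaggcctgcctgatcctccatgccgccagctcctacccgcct
Runx2 (chr17:44618326-44618475): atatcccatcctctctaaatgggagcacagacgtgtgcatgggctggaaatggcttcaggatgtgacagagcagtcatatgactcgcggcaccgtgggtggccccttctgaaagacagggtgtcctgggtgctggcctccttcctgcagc
Runx3 (chr4:135206436-135206585): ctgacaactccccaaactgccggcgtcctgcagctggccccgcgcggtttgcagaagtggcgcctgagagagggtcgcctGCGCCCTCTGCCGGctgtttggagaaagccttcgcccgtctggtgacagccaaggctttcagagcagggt
Sp7 (chr15:102377306-102377455): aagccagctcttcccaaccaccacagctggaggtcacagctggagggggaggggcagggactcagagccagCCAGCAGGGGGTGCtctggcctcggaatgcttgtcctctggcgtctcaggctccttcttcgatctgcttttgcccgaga
Ihh (chr1:74964606-74964755): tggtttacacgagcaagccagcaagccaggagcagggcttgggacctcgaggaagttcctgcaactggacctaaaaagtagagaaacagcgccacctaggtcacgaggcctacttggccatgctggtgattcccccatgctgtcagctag
Pth1r (chr9:110750916-110751065): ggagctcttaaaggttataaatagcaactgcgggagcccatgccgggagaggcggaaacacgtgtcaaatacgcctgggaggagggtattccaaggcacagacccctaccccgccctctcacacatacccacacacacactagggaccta
Nkx3-2 (chr5:41768496-41768645): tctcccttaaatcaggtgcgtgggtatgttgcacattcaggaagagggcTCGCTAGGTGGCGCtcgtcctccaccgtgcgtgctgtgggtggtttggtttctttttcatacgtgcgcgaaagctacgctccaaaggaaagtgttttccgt
The consensus was found in the peaks of Runx1, Runx3, Sp7 and Nkx3-2 and not in those of Runx2, Ihh and Pth1r, where the best stretch had 3, 3 and 5 mismatches. The search was added after the sequences had been read. Of the members' 103 distal shared peaks 20, or 19.4%, held it, against 28.4% of all 87898 distal shared peaks. Among peaks whose mean percentile over the libraries was 90 or over, it stood in 6 of the members' 9 peaks, or 66.7%, against 39.4% of all 5219. These 9 include the printed peaks of Runx1, Runx3, Sp7, Ihh and Nkx3-2, which had been read before the search. Their share is thus not independent of that reading. At 80 or over the consensus stood in 10 of 26, or 38.5%, against 46.9% of all. Runx3 held it in 7 of 13 distal shared peaks and Runx2 in 3 of 38. A match of letters does not show that CTCF was bound.

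Sp7 was compact. The gene, ENSMUSG00000060284.7, spans chr15:102356606-102367182 on the minus strand and had 1 shared promoter peak, chr15:102366836-102367065, with signals of 49 and 47. All of its 6 distal peaks were shared, and 5 of them lay upstream within 14.8 kb. The strongest was 10.4 kb upstream with signals of 110 and 104. The next, chr15:102381676-102381825, was 14.8 kb upstream with 112 and 93. In the gene body 2 of the 4 shared peaks are nearer to a start of Aaas, a nuclear pore gene, than to Sp7.

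Ihh, ENSMUSG00000006538.12 at chr1:74945315-74951672 on the minus strand, had 1 shared promoter peak with signals of 36 and 41, below and just above the middle of their lists at percentiles 28.4 and 53.9. Its strongest distal shared peak, 13 kb upstream, had signals of 111 and 94 at percentiles 95.8 and 92. The next, chr1:74948956-74949125, is intronic with signals of 74 and 72. The third lies inside Nhej1, a DNA repair gene known to harbour limb enhancers of Ihh, with signals of 34 and 28.

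Pth1r, ENSMUSG00000032492.14 at chr9:110722085-110747145 on the minus strand, had 5 shared promoter peaks and 1 distal, which became 7 distal when starts tagged basic alone were used. Its strongest promoter peak, chr9:110746476-110746625, stood 506 bp from the nearest upstream start with signals of 97 and 91. At the downstream cluster of starts chr9:110742556-110742785 had signals of 78 and 70, and chr9:110743096-110743305 had 72 and 59. The starts of Myl3, a muscle myosin light chain gene, overlap this stretch, so some of these peaks lie within 1 kb of starts of both genes. The distal shared peak, 3.85 kb upstream, had a signal of 71 in each library. In the gene body 3 further shared peaks are nearest to a start of Myl3, and the strongest, chr9:110732736-110732925, had signals of 114 and 122.

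Nkx3-2, ENSMUSG00000049691.8 at chr5:41761483-41764501 on the minus strand, had no peak in its body in either library. Its strongest distal shared peak lies 4.07 kb upstream with signals of 115 and 95, at percentiles 96.7 and 92.2. The next, chr5:41738096-41738245, lies 26.3 kb downstream with signals of 78 and 69. The 300 bp at its start have an observed to expected CpG ratio of 0.433, just inside the CpG-rich range. A strong site close to the gene thus stood beside a start at which the libraries differed.

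The number of distal shared peaks was highest at the members with the most sequence around them. As many distal shared peaks as Runx1 were found at 160 protein-coding genes, or 0.732%, and as many as Runx2 at 171, or 0.783%. For Runx3 it was 8.19%, for Sp7 21.6%, for Ihh and Nkx3-2 38.6% each, and for Pth1r 66.1%. The sequence nearer to the starts of the gene than to other protein-coding starts measured 608.9 kb for Runx1, 619.1 kb for Runx2 and 186.9 kb for Runx3. It was 27.92 kb for Sp7. Per 100 kb of that sequence Sp7 had 21.5 distal shared peaks, a density reached by 1.54% of genes, and the other 6 members had 4.41 to 7.63, densities reached by 18.3% to 37.1% of genes, against a median of 2.83 over all genes. Among genes whose nearest sequence was 0.8 to 1.25 times as long, Runx1 had 39 against a median of 12 and Runx2 had 38 against 12, and 7.93% and 8.63% of those genes had as many. Runx3 had 13 against a median of 8, with 22.9% having as many, and Sp7 had 6 against 1, with 1.99% having as many. Ihh and Nkx3-2 had 3 each against 2, with 38.2% and 46.8%, and Pth1r had 1 against 0, with 37.9%. These comparisons were chosen after the values were seen.

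**Figure D4:**
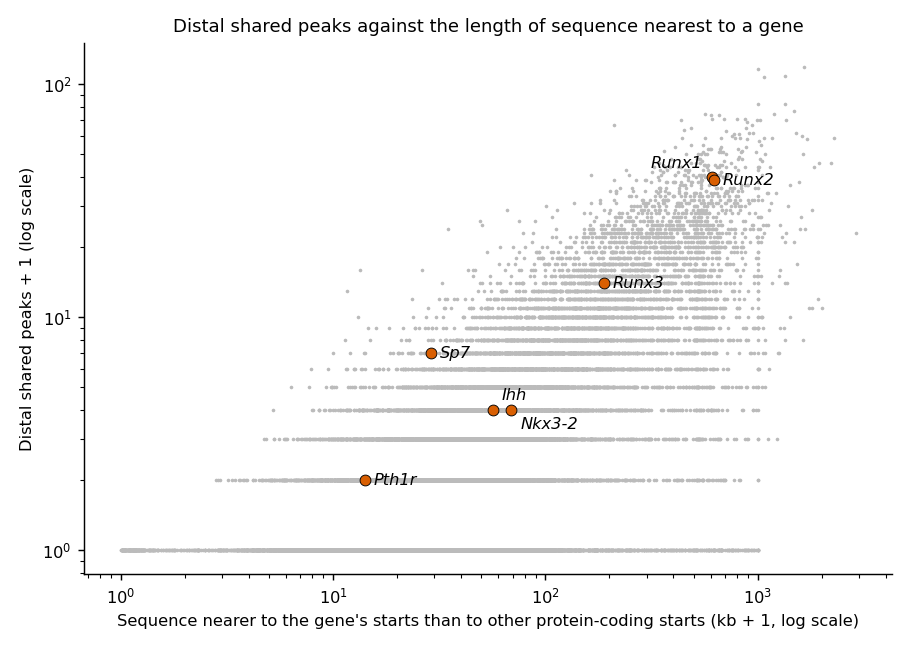
Distal shared peaks plus 1 (vertical, log scale) against the length in kb plus 1 of sequence nearest to a gene (horizontal, log scale), with 1 point per protein-coding gene. Runx1 with 39 and Runx2 with 38 peaks stand high among genes with as much sequence, and Sp7 with 6 peaks stands high among genes with little.

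Starts of noncoding genes change these counts. With genes of all types competing for a peak, Runx1 had 10 distal shared peaks, Runx2 had 4, Runx3 had 7 and Sp7 had 1. Of the distal shared peaks of Runx1, 29 were nearer to a start of another gene type, among them the miRNA gene Gm28003 and the long noncoding RNA gene Gm49723. Of those of Runx2 it was 34. Among these, 9 were nearest to the long noncoding RNA gene AC164546.1, 8 to the rRNA gene n-R5s27 and 7 to the antisense gene Runx2os3. Within 100 kb of a start Runx1 had 20 distal shared peaks and Runx2 had 11, while the 13 of Runx3 all remained.

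Sharing of the members' peaks between the libraries was read against all peaks of the same class. Of their distal peaks 104 of 151 in replicate 1, or 68.9% (Wilson 95% interval 61.1 to 75.7), overlapped a peak of replicate 2, against 68.9% of all distal peaks. In replicate 2 it was 104 of 163, or 63.8% (56.2 to 70.8), against 71.5%. For Runx3 in replicate 2 it was 13 of 34, or 38.2% (23.9 to 55). The 34 peaks of Runx3 are part of those 163, so its share and that of the members are not separate results. For Runx1 and Runx2 alone the shares in replicate 2 were 67.2% (54.4 to 77.9) and 69.6% (56.7 to 80.1). Of the promoter peaks 18 of 24 in each library, or 75% (55.1 to 88), had a partner, against 73.3% of all in replicate 1 and 80% in replicate 2. These intervals cover counting error alone, and neighbouring peaks are not independent. The members' distal shared peaks had a median mean percentile of 62.6, against 57.6 for all distal shared peaks. Of them 65 of 103, or 63.1%, stood at or above the median signal in both lists, against 53.4% of all. By gene the median mean percentile was 62.6 for Runx1, 54.2 for Runx2 and 82.8 for Runx3, and it was between 80 and 81.7 for Sp7, Ihh, Pth1r and Nkx3-2. Among distal shared peaks, Runx2 thus had many of middling signal and Runx3 few of high signal. This leaves out the peaks of Runx3 without a partner. Its 25 promoter and distal peaks with no peak or hotspot of replicate 1 under them had a median percentile of 49.1 in replicate 2.

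Short words were counted in the central 150 bp on both strands. The RUNX word TGTGGT stood in 8 of the members' 103 distal shared peaks, or 7.77%, against 11.9% of all distal shared peaks. It stood in none of their 17 shared promoter peaks, against 5.79% of all. In the central 300 bp it stood in 2 of the 17, or 11.8%, against 11.8% of all. The E-box CACCTG stood in 19.4% of the members' distal shared peaks, against 13.9% of all, with 9 of its 20 peaks at Runx1. The ETS word GGAAGT also stood in 19.4%, against 11%, with 10 of its 20 peaks at Runx2. The SP word GGGCGG stood in 14.6%, against 7.41%, and 7 of its 15 peaks were at Runx3. The TWIST-like E-box CATCTG stood in 21.4% against 19.9%, the E-box CAGCTG in 18.4% against 16.6% and the TEAD word GGAATG in 13.6% against 11%. The SOX word AACAAAG stood in 6.8% against 4.38% and the AP-1 word TGANTCA in 5.83% against 4.57%. The homeodomain word TAATTA was found in 4.85% against 5.28%, the GATA word AGATAA in 3.88% of both, and the GLI word GACCACC in 1.94% against 1.9%. The counts are small and say nothing of the factors.

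Other genes of the bone pathway were read from a list of 41. A shared promoter peak was found at 34 of them, against 66.8% of all protein-coding genes. Of the 41, 20 had 10 or more distal shared peaks, against 12.1% of all genes, and 13 had 20 or more, against 4.08%. The median was 7, against 1 over all genes. The 6 chondrocyte factors had the most, with a median of 49. They also had long stretches of nearest sequence, from 438.6 kb at Hdac4 to 1064 kb at Sox5. The counts of these lists were not scaled by that length. Sox9, which starts the cartilage programme, had 68, its partners Sox6 and Sox5 had 60 and 58, Zfp521, a zinc finger factor of the skeleton, had 58, and the signal gene Bmp2 had 42. Cbfb, the Runx partner, had 3 distal and 2 promoter shared peaks. Pthlh, whose protein is a ligand of Pth1r, had 10 distal and 3 promoter shared peaks. The genes without a shared promoter peak were all in the list of 15 late matrix, mineral and remodelling genes. They were the cartilage collagen gene Col10a1, the protease gene Mmp13, the matrix and mineral genes Bglap, Ibsp, Spp1 and Dmp1, and the osteocyte signal gene Sost, none of which had a promoter peak in either library. Of these 7 genes, Sost had 10 distal shared peaks, Spp1 had 7, Dmp1 had 2, Col10a1, Bglap and Ibsp had 1 each and Mmp13 had 0. Dlx6, an osteoblast factor, had 8 distal peaks in replicate 1 and 48 in replicate 2, a wider gap between the libraries than at Runx3. Pax1 and Pax9, which act upstream of Nkx3-2 in the trunk skeleton, had 1 promoter peak each in replicate 1, and 9 and 6 in replicate 2. Over all genes such gaps went both ways. At least 4 more promoter peaks were found in replicate 2 at 113 genes (0.517%) and in replicate 1 at 125 genes (0.572%).

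**Figure D5:**
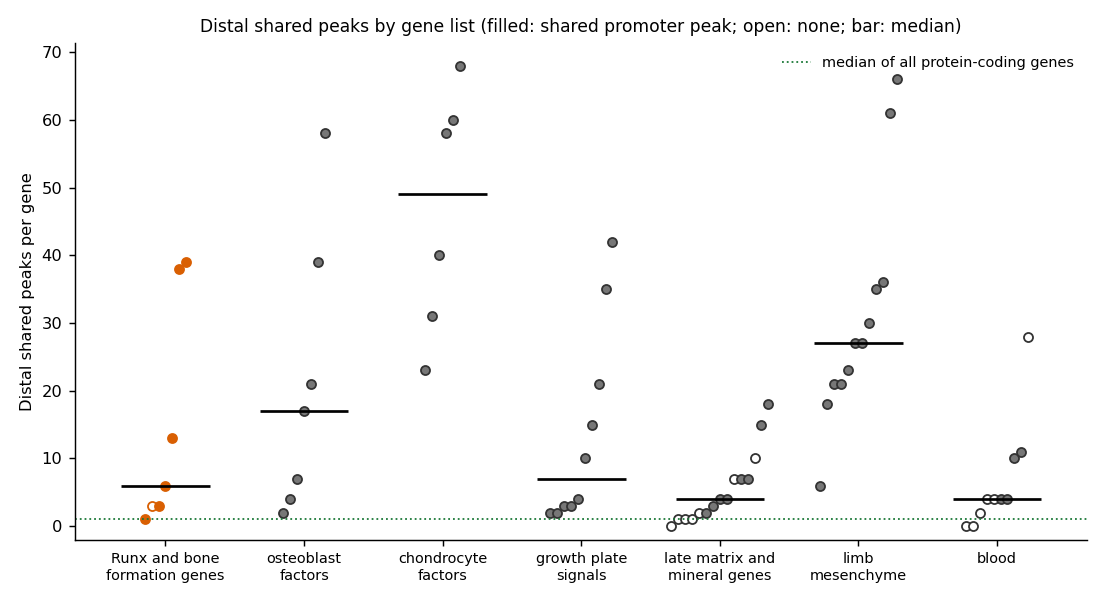
Distal shared peaks per gene (vertical axis) for the 7 genes described here (orange) and 6 lists of other genes (grey), where filled points have a shared promoter peak, open points have none and bars are medians. The chondrocyte factors have a median of 49, the 7 genes 6 and all protein-coding genes 1 (dotted line). Counts are not scaled by the length of nearest sequence.

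Markers of the labelled tissue and of other cells were read in the same way. Over all protein-coding genes, 66.8% had a shared promoter peak and the median was 1 distal shared peak. All 12 limb mesenchyme markers had a shared promoter peak, with a median of 27 distal shared peaks. Of 10 blood markers 4 had a shared promoter peak, with a median of 4 distal shared peaks and a range from 0 at Gata1 and Csf1r to 28 at Ptprc. The distal counts were not scaled by the length of nearest sequence, which differed between the lists. It ran from 33.88 kb at Hoxa13 to 953 kb at Meis1 for limb mesenchyme. For blood it ran from 7.319 kb at Klf1 to 549.3 kb at Ptprc. Of the endothelial markers 2 of 7 had a shared promoter peak, of the surface ectoderm markers 6 of 7, and of the muscle markers 2 of 5. All 7 sensory neuron markers had one, including Ntrk3, the receptor of the neurons in which Runx3 acts, with 11 distal shared peaks. The part of each cell type in the peaks of the Runx genes was not tested.

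The genes most like each Runx gene were sought over 6 values, the log2 of promoter, body and distal peak counts plus 1 in each library. Trps1 and Meis2 were nearest to Runx1, at distances of 0.284 and 0.339 log2 units. Trps1 had 56 and 64 distal peaks in replicates 1 and 2, and Meis2 had 73 and 63. Arid1b and Nckap5 were nearest to Runx2, at 0.323 and 0.365. Ostm1 and Hoxd3 were nearest to Runx3, at 0.472 and 1.05. Ostm1 had 15 and 27 distal peaks in replicates 1 and 2, and Hoxd3 had 11 and 25, counts that were part of the choice.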

How the data were processed

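Per the labels, embryonic limb was assayed by DNase-seq in 2 biological replicates. Regions are on mm10 and were called on each library apart, as the deposited descriptions state. The names of the aligner and caller were not given in the sources used here. Deposited peak lists hold 174611 and 167550 intervals with the authors' signal, whose scaling is not stated. The deposited hotspot lists give a −log10 q per region with a ceiling of 100. No read counts were used, so depth is unknown. Of the peaks, 69.8% and 73.1% overlapped a peak of the other library.

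Peaks on 21 named chromosomes were set against 54361 starts of protein-coding transcripts of GENCODE M21, which is on the same primary chromosomes (GRCm38). A peak was promoter or distal by its centre. Shared peaks are merged overlapping peaks. Starts within 1 kb were joined into promoters. Sequences came from RefSeq and GRCm38.p6. No test between groups was possible with 1 group. Intervals are Wilson intervals at 95%. The overlap and nearest-start steps were tested on simulated data and found all 3000 planted overlaps and 500 of 500 nearest starts. Alternatives changed overlap, threshold, region type, promoter window, starts, reach, competing genes and word window, and left out each replicate.

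The members and gene lists were chosen with earlier results of these data known. Named peaks were up to 3 of the strongest shared peaks of each promoter, the 3 strongest distal shared peaks of each Runx gene and 2 of each other gene, and the strongest peak of each Runx gene with neither a peak nor a hotspot in the other library. From the other bone genes, the 5 with the most distal shared peaks and those without a shared promoter peak were named by rule. Cbfb, Pthlh, Dlx6, Pax1, Pax9 and Ntrk3 were named after their values were seen. Python 3.11.15, NumPy 2.4.6, SciPy 1.17.1 and Matplotlib 3.10.9 were used.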

Additional observations from a re-analysis of the deposited data

How the results depend on the processing

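The members' 103 distal shared peaks became 65 with peaks at or above the median signal of their list, 57 within 100 kb, 40 within 50 kb and 27 with genes of all types competing. Leaving out a replicate gave 151 to 163 distal and 96 to 108 gene-body peaks (69 shared), since a single library needs no partner. The share of peaks found in both libraries, 67.5% on average, was 59.7% at an overlap of 75 bp and 76.3% with peaks at or above the median signal, and it has no value with a replicate left out. Of the 6 Runx promoters 3 had a shared peak, 3 to 5 had one with a replicate left out, 2 with a 500 bp window or with peaks at or above the median signal, and 4 with a 2 kb window. The RUNX word stood in 8 distal shared peaks at 150 bp and in 22 at 300 bp, where 21.2% of all distal shared peaks held it. The count of members with a shared promoter peak, 6, lay between 4 and 7 in all alternatives run. For single members 60 of 77 alternative counts of distal shared peaks lay within 1.5 times the reported count. Those for Pth1r reached 7 with starts tagged basic, against 1. The settings differ from the reported one by construction, in the peaks or genes they admit. Depth is unknown, so a missing peak is one not called at this depth. No paired analysis was possible because the labels give a single group.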
